A study of Mus musculus with 15 samples.

Results

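Endothelial cells of the heart were compared with endothelial cells of the liver, the pair of endothelia in this mouse study that lie outside the nervous system. The comparison took the 5 arrays titled as heart and the 5 titled as liver microvascular endothelium from a series of 15 arrays, and 19938 genes, each read through its brightest probe set among those with a single gene symbol. The 5 brain arrays entered the fit only to share the estimate of each gene's spread and serve below as a point of reference. Every group carried the same transgene: the mice were Tie2-GFP on the FVB background, aged 8 to 12 weeks, on standard chow, and a sample was a pool with males and females stated as 1:1. The promoter of the transgene is that of Tek, a receptor gene of endothelium that some blood-forming and myeloid cells are also known to use, so the sort on green fluorescence does not by itself exclude them. A heart sample pooled 4 mice and was taken apart with collagenase I at 37 °C (60 min), with connective tissue and visible large vessels removed first. A liver sample pooled 2 mice and was taken apart with dispase (60 min, room temperature), then cleared of hepatocytes by slow centrifugation and passed over Percoll. Because each tissue had its own enzyme, temperature and pool size, these cannot be told apart from the tissue. Each array was made from 5 ng of RNA that was amplified and labelled, and the levels below are log2 values made by RMA, a robust average of background-corrected and quantile-normalised probe signals. Whether the pools of a tissue shared mice or a day of work is not stated, so p-values measure the spread between these pools.

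Heart capillaries are continuous vessels with many caveolae, and they pass fatty acids from blood lipids to a muscle that burns them without pause. Liver sinusoids are a low-pressure bed of thin cells with open pores and little basement membrane, and they clear waste macromolecules from the blood through scavenger receptors that feed a large lysosomal system. Sinusoidal cells are also known as a source of signals to hepatocytes, among them BMPs that set iron uptake, Wnt ligands that zone the lobule and clotting factor VIII.

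Both groups carried the general genes of endothelium at high levels. Tek, the receptor whose promoter drives the transgene, read 11.02, 11.06, 11.05, 11.02 and 10.97 on heart replicates 1 to 5 and 11.31, 11.44, 11.25, 11.37 and 11.26 on liver replicates 1 to 5. Every liver array lay above every heart array, by a mean of only 0.30 ± 0.07 (standard error, SE, of the linear model fitted with limma) on the log2 scale. Pecam1, an adhesion molecule of endothelial contacts, averaged 11.36 ± 0.09 in heart and 10.97 ± 0.13 in liver (mean ± SD, n = 5 arrays each, as for every mean ± SD below). Kdr, the main VEGF receptor, averaged 11.50 ± 0.10 in heart and 11.83 ± 0.06 in liver, and Tie1, a partner of Tek, averaged 8.92 ± 0.09 and 8.84 ± 0.16. The small differences of Pecam1 and Kdr were called (0.39 and -0.34) but not without liver replicates 1, 3 and 4, which stand apart as described below (0.27 and -0.33). Over 32 general endothelial genes the mean level was 10.06 to 10.21 on the heart arrays and 9.87 to 10.11 on the liver arrays. Here and below a gene was counted as higher in 1 tissue when its adjusted p was under 0.05 (limma, Benjamini-Hochberg over all 19938 genes). By that rule 10 of the 32 were higher in heart and 8 in liver, against 11.5% of all genes, dim ones included, for heart and 16.3% for liver. The largest of these differences were those of Cd34, a sialomucin of endothelial and progenitor cells, at 2.56 ± 0.11 heart minus liver, of S1pr1, the sphingosine-1-phosphate receptor that steadies junctions, at 1.27, of Clec14a, an adhesion lectin, at -1.32, and of Eng, a TGF-beta co-receptor, at -0.99. Vwf, a clotting protein of larger vessels, overlapped between the groups and was not called (7.86 ± 0.26 in heart, 7.46 ± 0.45 in liver, adjusted p = 0.124).

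Several arrays stood apart within their own group. The mean of 11 Kupffer cell markers was 7.62, 6.03, 8.23, 7.87 and 5.89 on liver replicates 1 to 5 and 5.38 to 5.49 on the heart arrays, so liver replicates 1, 3 and 4 were high, and the mean of 24 macrophage and monocyte markers followed the same split (7.31 to 7.64 on these 3 and 5.75 on each of the other two). Vsig4, a complement receptor of Kupffer cells, read 10.23, 7.57, 10.64, 10.70 and 5.29 on the liver arrays and 3.75, 4.11, 4.21, 4.35 and 4.07 on the heart arrays, and its difference of -4.78 was -2.33 without liver replicates 1, 3 and 4. The mean of 25 cardiomyocyte markers was 8.40, 7.68, 8.09, 7.18 and 7.17 on heart replicates 1 to 5, highest on replicates 1 and 3, and 5.70 to 5.95 on the liver arrays. Of these 25 markers, 24 were higher in heart and 1, Myl4, in liver (not called without liver replicates 1, 3 and 4). Markers of pericytes and smooth muscle averaged 7.68, 7.09, 7.46, 7.02 and 6.52 on the heart arrays against 5.97 to 6.07 on the liver arrays, and fibroblast markers 6.17 to 7.17 against 5.58 to 5.84. Hepatocyte markers averaged 6.45 to 7.0 on the liver arrays and 4.89 to 4.99 on the heart arrays, and Alb, the plasma protein albumin, read 9.76, 10.18, 9.69, 9.42 and 10.32 in liver against 4.0, 4.47, 4.33, 4.35 and 4.13 in heart. Heart replicate 1 also stood out for immediate-early genes, which cells switch on within minutes of handling or stimulation (mean of 34 genes 9.04, against 7.26 to 7.94 on the other heart arrays).

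The sex-linked genes went against the stated 1:1 pools in part of the liver group. Xist, the transcript that silences an X chromosome in females, read 9.63, 9.59, 8.97, 9.08 and 9.13 on the heart arrays and 5.44, 9.08, 9.41, 3.81 and 4.84 on the liver arrays. Liver replicates 1, 4 and 5 were thus far below all heart arrays, while liver replicates 2 and 3 matched them. Eif2s3y, a gene of the Y chromosome, read 8.50, 7.80, 4.08, 8.42 and 8.26 on the liver arrays and 7.14, 7.74, 7.73, 8.03 and 7.20 on the heart arrays, with liver replicate 3 as the low one. Xist was called higher in heart by 2.76 ± 0.81 (adjusted p = 0.0158), a call that was lost without liver replicates 1, 4 and 5 (0.03, adjusted p = 0.948). In bulk samples like these, fewer cells of a type and less RNA per cell cannot be told apart. Without liver replicates 1, 4 and 5, 11 other genes named in the text lost their call (Acsl5, Cdh5, Ctsc, Gla, Hsp90b1, Hspa1a, Kdr, Mir99ahg, Myl4, Nrp1 and Tfrc). That fit holds fewer arrays, and its calls over all genes fell from 5538 to 3799, so a lost call does not mark a gene as linked to sex. Without heart replicates 1 and 3, Xist (2.75, adjusted p = 0.0568) was not called either. The part of other cells, or of sex, in the differences below was not tested.

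**Figure D1:**
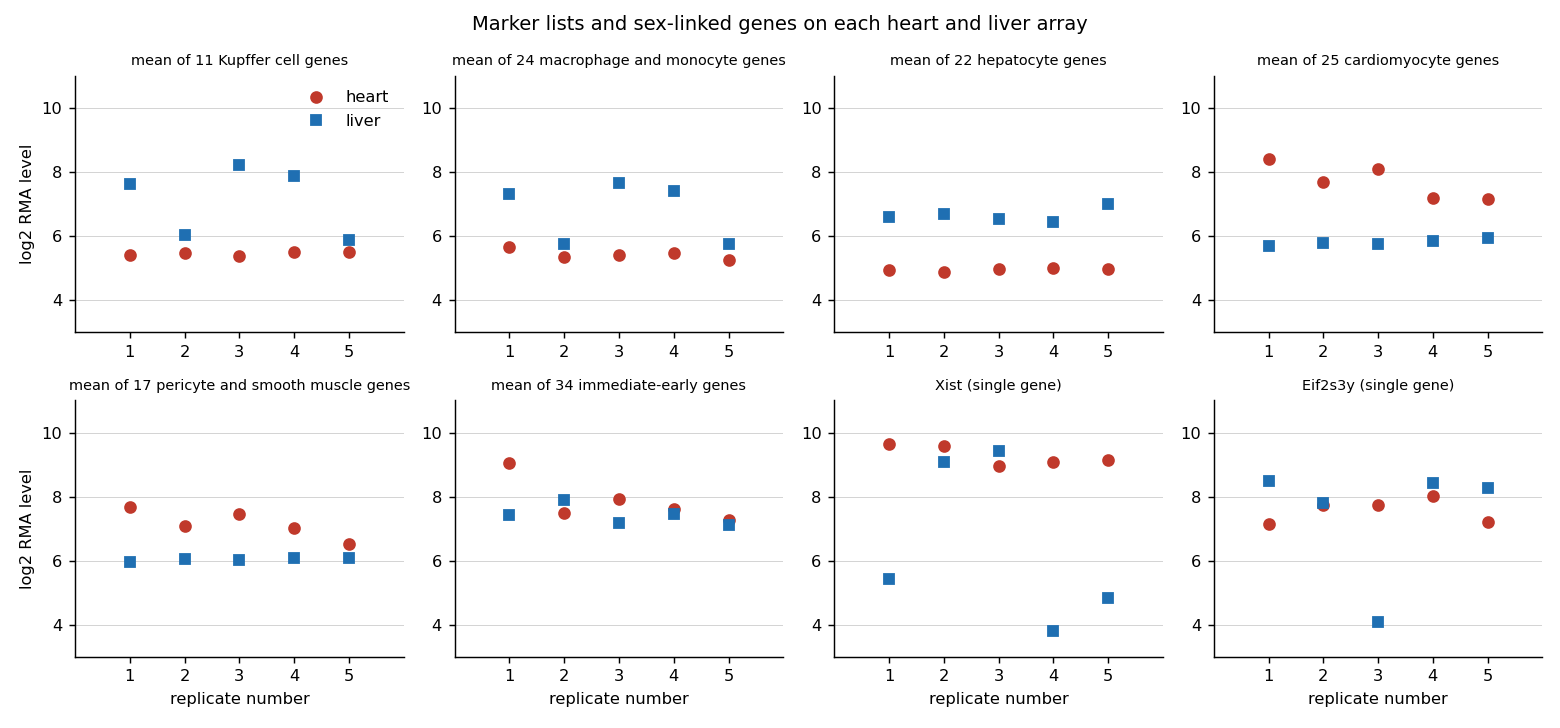
Log2 RMA level by replicate number for the mean of 6 gene lists and for 2 single genes, with heart arrays as red circles and liver arrays as blue squares. Liver replicates 1, 3 and 4 sit between 7.62 and 8.23 for Kupffer cell genes, all above the other liver arrays, and liver replicates 1, 4 and 5 sit below 6 for Xist.

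Between the 2 endothelia, 2286 genes were higher in heart and 3252 in liver. With a floor of at least 2-fold, 1298 genes differed (6.51% of all), 565 higher in heart (2.83%) and 733 in liver (3.68%), and in 1231 of these 1298 genes the 5 arrays of one tissue all lay above the 5 of the other, as they did with heart above for 8.81% and with liver above for 11.8% of all genes. At least 4-fold differences were found for 200 genes higher in heart (1% of all) and 208 in liver (1.04%), and at least 16-fold for 31 (0.155%) and 42 (0.211%). The median difference over all genes was 0.03, and the typical spread within a group was small (median SD over genes 0.149 in heart and 0.166 in liver). For 12808 genes, 64.2% of all, the 95% confidence interval of the difference lay within 0.5 of zero on the log2 scale. Heart accounted for 41.3% of the calls as deposited and for 21.1% when each array was centred on its 32 general endothelial genes (1220 higher in heart, 6.12% of all genes, and 4570 in liver, 22.9%), which moved the median of all genes to -0.11. Small differences are to be read relative to that shift. Centring on array medians gave 1810 and 3756. With only the 10670 genes whose heart or liver mean lay above 6.07, 1863 were called in heart and 3139 in liver. Both are larger shares than those over all genes. List members below were not matched to all genes by level, so list counts are to be read beside both. A fit without liver replicates 1, 3 and 4 called 1451 genes in heart (7.28%) and 1834 in liver (9.2%), one without heart replicates 1 and 3 called 1887 (9.46%) and 2678 (13.4%). In the first of these, 532 of the 565 genes and 678 of the 733 were still called in the same direction. In the second, 551 and 718 were still called.

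**Figure D2:**
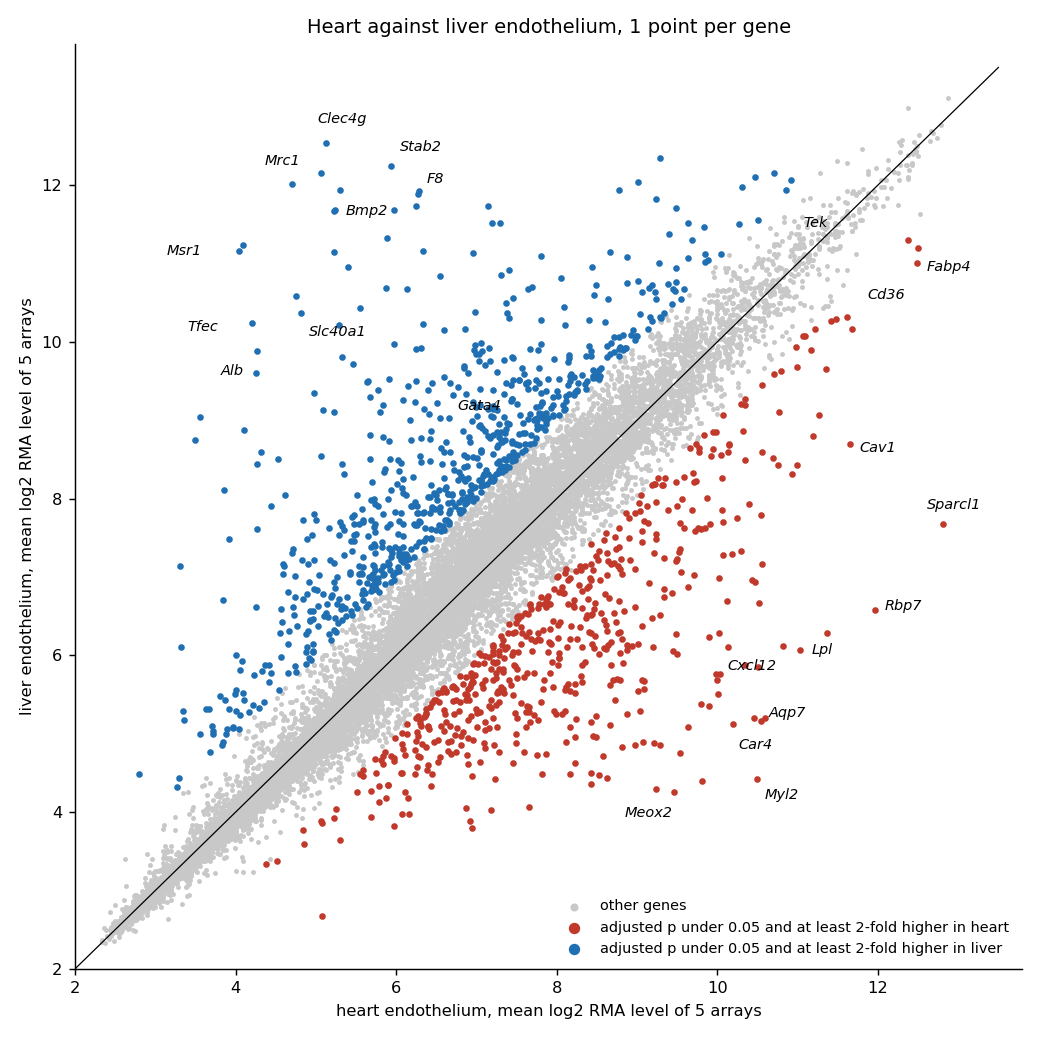
Mean log2 RMA level of each of 19938 genes on the 5 liver arrays against its mean on the 5 heart arrays, with the line of equal level. The coloured points are the 565 genes at least 2-fold higher in heart and the 733 at least 2-fold higher in liver, and Tek lies close to the line.

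The brain arrays lay nearer to heart for most of these genes. Of the 733 genes at least 2-fold higher in liver than in heart, the brain mean was nearer to the heart mean in 640 (87.3%). Of the 565 at least 2-fold higher in heart, it was nearer to the heart mean in 335 (59.3%). At the 4-fold floor these shares were 92.8% and 66.0%. Genes of the first kind, low in both heart and brain, included Stab2 (brain 5.90 ± 0.11), Bmp2 (6.07 ± 0.31) and F8 (5.71 ± 0.27). Slc40a1, the iron exporter ferroportin, went the other way, with brain arrays at 9.61 to 10.30, near liver at 10.37 ± 0.18 and far from heart at 4.81 ± 0.19. Among genes higher in heart, Ebf1 and Cxcl12 were high in brain as well (9.77 ± 0.16 and 10.27 ± 0.22, beside 9.46 ± 0.21 and 10.03 ± 0.23 in heart), whereas Meox2, Aqp7 and Pparg were low there (4.13 ± 0.21, 5.01 ± 0.19 and 5.52 ± 0.22).

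**Figure D3:**
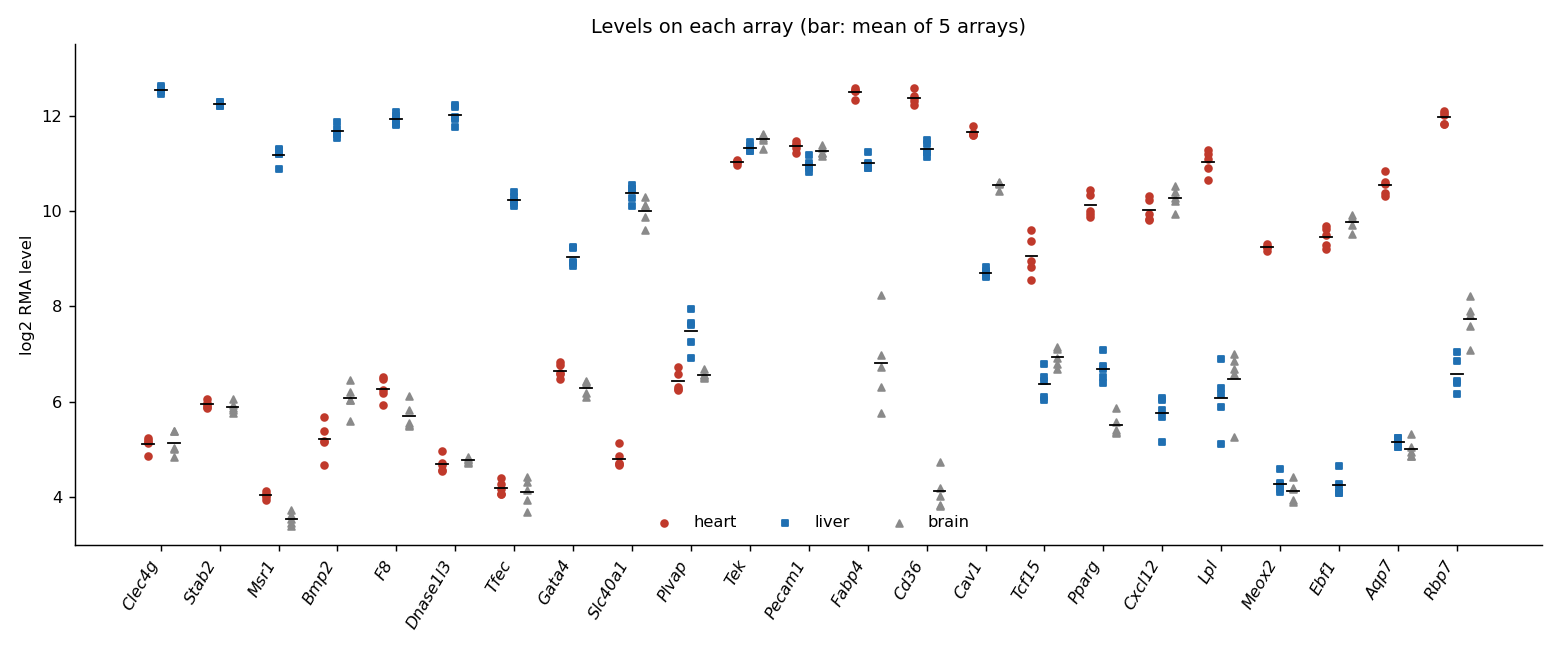
Log2 RMA level of 23 genes on each heart (red circles), liver (blue squares) and brain (grey triangles) array, with a bar at the mean of 5 arrays. Genes from Clec4g to Tek were higher in liver than in heart, genes from Pecam1 to Rbp7 were higher in heart, and the heart and liver points of these genes do not overlap.

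The receptors with which sinusoids take up waste from the blood gave some of the largest differences of the whole comparison. Of 25 measured scavenger and uptake receptors or their partners, 19 were higher in liver, 1 in heart and 5 were not called. Of all genes, 16.3% were higher in liver and 11.5% in heart. The median difference was -1.97 against 0.03 for all genes. Clec4g, a C-type lectin also called LSECtin, read 4.87, 5.20, 5.13, 5.25 and 5.15 on the heart arrays and 12.51, 12.63, 12.58, 12.46 and 12.51 on the liver arrays. No liver array came within 7 log2 units of any heart array, and the difference was 171-fold (adjusted p = 1.61e-18). Stab2, the main hyaluronan receptor of sinusoids, read 5.97, 6.07, 5.87, 5.93 and 5.89 in heart and 12.20, 12.28, 12.25, 12.29 and 12.21 in liver, 78.8-fold higher. The SDs were 0.08 and 0.04, and liver replicates 2 and 5, with low Kupffer markers, lay within the range of the other liver arrays. Msr1, scavenger receptor A, read 3.95, 4.05, 4.07, 4.14 and 4.0 in heart and 10.87, 11.20, 11.29, 11.27 and 11.19 in liver (139-fold), and Mrc1, the mannose receptor, 5.45, 4.82, 5.25, 4.97 and 4.83 and 12.09, 12.35, 12.08, 12.29 and 12.02 (137-fold). Both are also known from macrophages, and liver replicates 2 and 5, with the lowest Kupffer markers, stood at 11.20 and 11.19 for Msr1 and at 12.35 and 12.02 for Mrc1. Fcgr2b, which clears immune complexes, was 60.7-fold higher in liver, Ehd3, a recycling protein of early endosomes, 43.3-fold, Lgmn, a lysosomal protease listed with them, 18.6-fold, Stab1 8.22-fold, Lyve1, a second hyaluronan receptor, 7.54-fold, and Dab2, a clathrin adaptor, 3.92-fold.

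The exception was Cd36, which binds modified lipoproteins but also carries fatty acids into heart capillaries. It read 12.36, 12.58, 12.23, 12.30 and 12.40 in heart and 11.13, 11.48, 11.24, 11.24 and 11.41 in liver, and was 2.1-fold higher in heart (adjusted p = 1.45e-05, no overlap). Scarb1, the HDL receptor, was not called (difference -0.03, 95% interval -0.26 to 0.21), nor was Lrp1, a broad endocytic receptor (-0.08, 95% interval -0.5 to 0.34). Leaving out liver replicates 1, 3 and 4, 16 of the 19 receptors were still called higher in liver, with a median over the list of -1.67, and Stab2, Msr1 and Mrc1 differed by -6.30, -7.15 and -7.12.

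Genes of the lysosome, where such cargo is broken down, were for the most part higher in liver. Of 41 measured, 34 were higher in liver, 0 in heart and 7 were not called, with a median difference of -0.70. Of all genes, 16.3% were higher in liver and 11.5% in heart. The mean level of the list was 7.61 to 7.84 on the heart arrays and 8.69, 8.33, 8.68, 8.59 and 8.30 on liver replicates 1 to 5. The groups did not overlap, but the arrays with high Kupffer markers were also the higher ones here. Among the enzymes, Tpp1, a peptidase, read 7.71, 7.18, 7.73, 7.53 and 7.52 in heart and 9.74, 9.40, 9.63, 9.38 and 9.41 in liver (3.94-fold), and Hexa, which trims gangliosides, 6.98, 7.15, 7.48, 7.29 and 7.16 and 9.30, 9.15, 9.22, 9.03 and 9.21 (3.92-fold). Ctsd, an aspartic protease, was 3.34-fold and Ctsb 3.72-fold higher in liver. The membrane protein Lamp1 was 2.07-fold and the receptor Scarb2, which delivers glucocerebrosidase, 2.42-fold higher. Ctss, a protease of antigen-presenting cells, read 10.26, 8.44, 10.50, 10.33 and 7.39 on liver replicates 1 to 5 against 7.19, 6.17, 6.27, 6.27 and 6.09 in heart, and its difference of -2.99 was -1.52 without liver replicates 1, 3 and 4. Cd63 and Ids did not differ beyond their spread (intervals -0.4 to 0.57 and -0.08 to 0.31).

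Without those 3 arrays, 23 of the 34 lysosomal genes were still called higher in liver, the median over the list was -0.53, and 1 gene, the sulfatase Arsb, was called higher in heart. Tpp1, Hexa, Ctsd and Lamp1 kept differences of -1.87, -1.97, -1.69 and -1.0, which are those between heart and the pair of liver arrays with the lowest Kupffer markers. Ctsc, another protease, went from -1.68 to 0.20 and was no longer called.

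**Figure D4:**
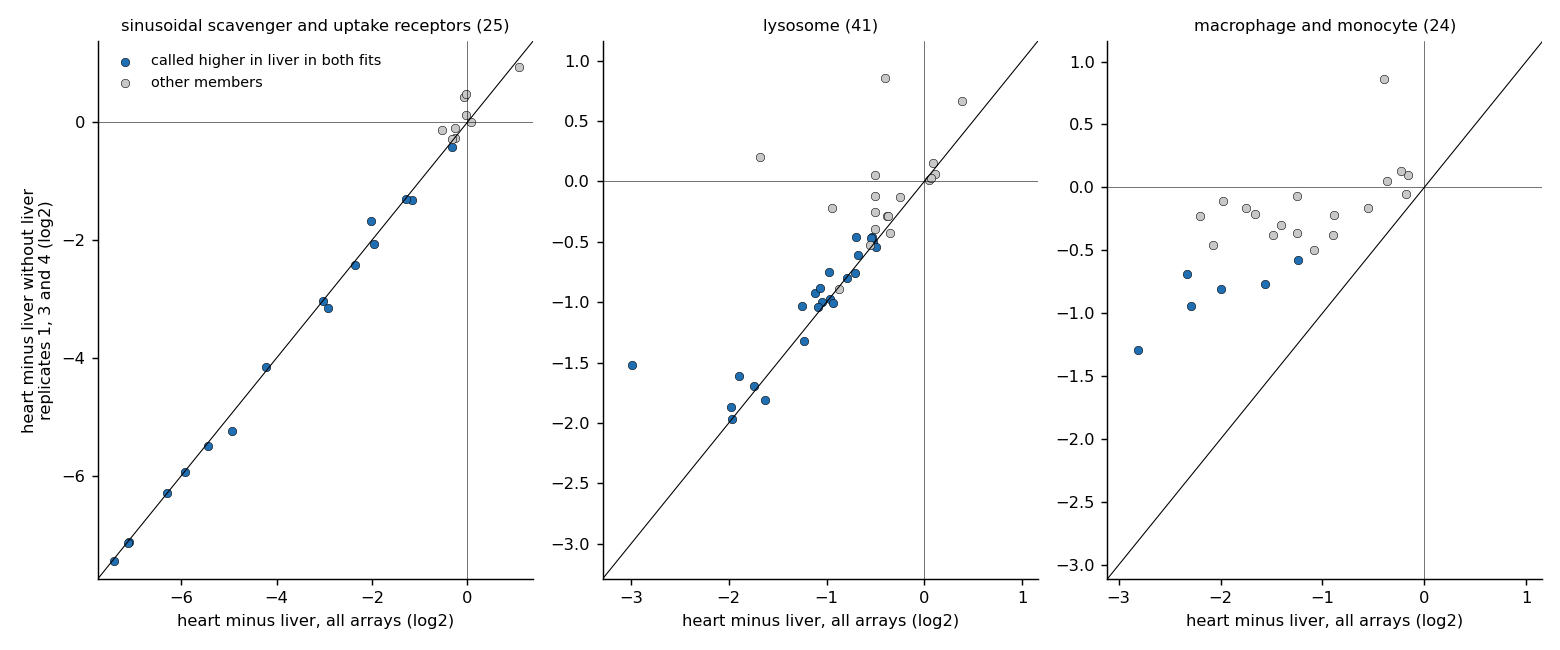
Heart minus liver log2 difference of each member of 3 gene lists with all arrays (horizontal axis) and without liver replicates 1, 3 and 4 (vertical axis), with the line of equality and blue for members called higher in liver in both fits. The 16 blue receptors lie on or near the line, as do most of the 23 blue lysosomal genes, and the macrophage and monocyte genes lie above it.

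Lysosomal genes are known to share a short promoter word that factors of the MiT family (Mitf, Tfeb, Tfe3, Tfec) bind, so the promoters of the list were read. RefSeq windows of 250 bases before the transcript start (GRCm38.p6) were at hand for 15614 of the genes and for 35 of the 41 lysosomal ones. The core CACGTG, which reads the same on both strands, stood in 12 of those 35 windows (34.3%), in 11 of the 30 windows of members higher in liver (36.7%) and in 8.11% of all windows. The longer TCACGTGA, which contains it and also reads the same on both strands, stood in 5 of 35 (14.3%) against 1.25% of all windows. Among genes at least 4-fold higher in liver, whatever their function, CACGTG stood in 7.23% of windows and TCACGTGA in 0 of 166. All 5 lysosomal genes with TCACGTGA were called higher in liver, as were the genes of 30 of the 35 windows, so the call does not set them apart. Their 5 windows are given because they hold the longer word. They run 5′ to 3′ on the gene's own strand and end at the base before the transcript start, and capitals mark each CACGTG with its flanking T and A where these complete TCACGTGA.
Atp6v1a promoter, chr16:44139260-44139509 (minus strand): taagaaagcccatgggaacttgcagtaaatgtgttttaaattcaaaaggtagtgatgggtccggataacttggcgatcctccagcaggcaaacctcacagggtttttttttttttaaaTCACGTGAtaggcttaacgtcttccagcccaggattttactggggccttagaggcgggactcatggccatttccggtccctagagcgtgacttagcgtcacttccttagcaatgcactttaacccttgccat
Ctsa promoter, chr2:164833523-164833772 (plus strand): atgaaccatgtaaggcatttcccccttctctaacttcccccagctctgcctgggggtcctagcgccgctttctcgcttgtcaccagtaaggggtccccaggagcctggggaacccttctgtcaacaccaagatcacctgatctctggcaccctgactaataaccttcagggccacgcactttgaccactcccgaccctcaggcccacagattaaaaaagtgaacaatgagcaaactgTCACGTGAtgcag
Ctsd promoter, chr7:142387828-142388077 (minus strand): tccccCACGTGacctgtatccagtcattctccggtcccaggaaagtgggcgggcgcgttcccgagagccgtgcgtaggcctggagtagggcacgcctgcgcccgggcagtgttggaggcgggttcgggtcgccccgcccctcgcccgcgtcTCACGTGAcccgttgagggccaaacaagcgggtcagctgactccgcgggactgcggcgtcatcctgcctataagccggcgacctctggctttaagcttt
Gla promoter, chrX:134601006-134601255 (minus strand): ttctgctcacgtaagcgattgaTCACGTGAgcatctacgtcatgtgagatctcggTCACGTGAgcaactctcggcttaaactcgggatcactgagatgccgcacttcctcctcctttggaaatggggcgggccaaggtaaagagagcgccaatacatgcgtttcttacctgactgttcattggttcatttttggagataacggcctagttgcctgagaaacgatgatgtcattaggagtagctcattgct
Mcoln1 promoter, chr8:3500269-3500518 (plus strand): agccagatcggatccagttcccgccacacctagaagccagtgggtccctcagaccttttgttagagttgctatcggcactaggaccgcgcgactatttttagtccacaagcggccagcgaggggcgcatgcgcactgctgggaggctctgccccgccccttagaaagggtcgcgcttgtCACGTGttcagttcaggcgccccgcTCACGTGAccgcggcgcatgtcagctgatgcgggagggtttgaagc
In Ctsa, the protective protein of lysosomal sialidase, TCACGTGA begins 13 bases before the start, and Gla, alpha-galactosidase, holds it at 2 places. These genes differed between heart and liver by -1.12 (Ctsa), -1.74 (Ctsd), -0.87 (Gla, where heart replicate 1 overlapped the liver arrays), -0.52 (Mcoln1, the lysosomal calcium channel) and -0.49 (Atp6v1a, a proton pump subunit). Their differences without liver replicates 1, 3 and 4 were -0.92, -1.69, -0.89, -0.50 and -0.54, with only that of Gla not called (adjusted p = 0.119). A word in a window is no proof of a bound site, base composition was not matched, and these words were picked out of 14 after their counts had been seen. All 14 were searched on both strands. The other 12 were the looser TCACNTGA of the MiT family and its longer form known as the CLEAR element, GTGGGAA of Notch, TGCNCNC, TTCNNGAA of heat shock factors and their full element, CATTCCT of Tead factors, the MEF2 element, the direct repeat that PPAR binds, the CArG box of serum response factor, and a pair of GATA words. Of the last, TGATAA stood in 6.63% and AGATAA in 9.64% of the windows of genes at least 4-fold higher in liver, beside 7.22% and 9.94% of all windows. The CLEAR element stood in 0 of the 35 lysosomal windows, beside 0.403% of all windows.

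Of the MiT family itself, only Tfec differed by a large amount. Tfec read 4.18, 4.08, 4.40, 4.28 and 4.07 in heart and 10.11, 10.40, 10.29, 10.21 and 10.16 in liver, with no overlap, and was 65.6-fold higher (adjusted p = 1.72e-16). Mitf and Tfeb were not called (differences 0.01 and -0.01, adjusted p = 0.967 and 0.968), and Tfe3 was 1.48-fold higher in liver. Without liver replicates 1, 3 and 4 Tfec still differed by -6.08, whereas Mitf became higher in heart by 0.46 (adjusted p = 0.0301).

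Transcription factors set the 2 endothelia apart in both directions. In liver, Gata4, the factor that directs sinusoidal differentiation, read 8.92, 9.23, 8.93, 8.84 and 9.25 against 6.83, 6.78, 6.58, 6.61 and 6.49 in heart (5.19-fold, no overlap), and Maf read 8.15, 9.68, 8.04, 7.97 and 7.90 against 5.95, 6.02, 6.06, 6.04 and 6.07, with liver replicate 2 far above the other liver arrays. The Gata4 relatives Gata6 and Gata2 went the other way, 2.44-fold and 1.7-fold higher in heart. Their log2 differences of 1.29 and 0.76 were 1.1 and 0.7 without heart replicates 1 and 3. Meis2, a homeodomain cofactor, was 29.4-fold higher in liver and Meis1 3.98-fold. Nr2f2, known as COUP-TFII and as a venous factor, was 5.06-fold higher in liver, and Hoxb5 5.06-fold.

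In heart, Meox2, a homeobox factor, read 9.24, 9.31, 9.24, 9.24 and 9.16 against 4.12, 4.60, 4.25, 4.18 and 4.30 in liver (30.9-fold, adjusted p = 3.33e-16). Tcf15, its partner in the control of fatty acid transport genes in heart endothelium, read 8.82, 8.56, 9.61, 8.95 and 9.38 against 6.03, 6.11, 6.43, 6.52 and 6.79 (6.45-fold). Pparg, a nuclear receptor for fatty acids, read 10.34, 9.87, 10.45, 9.94 and 10.01 against 6.69, 6.76, 7.08, 6.52 and 6.39 (10.8-fold), so these 3 were separate on every array. Ebf1 was 36.8-fold, Ebf3 7-fold, Meox1 8.25-fold, Hey1, a Notch target, 11.1-fold and Tbx3 6.29-fold higher in heart. Of 58 organ-linked factors measured, 23 were higher in heart and 11 in liver, beside 11.5% and 16.3% of all genes. Without liver replicates 1, 3 and 4 the counts were 19 and 11, and with centring on general endothelial genes 20 and 14.

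**Figure D5:**
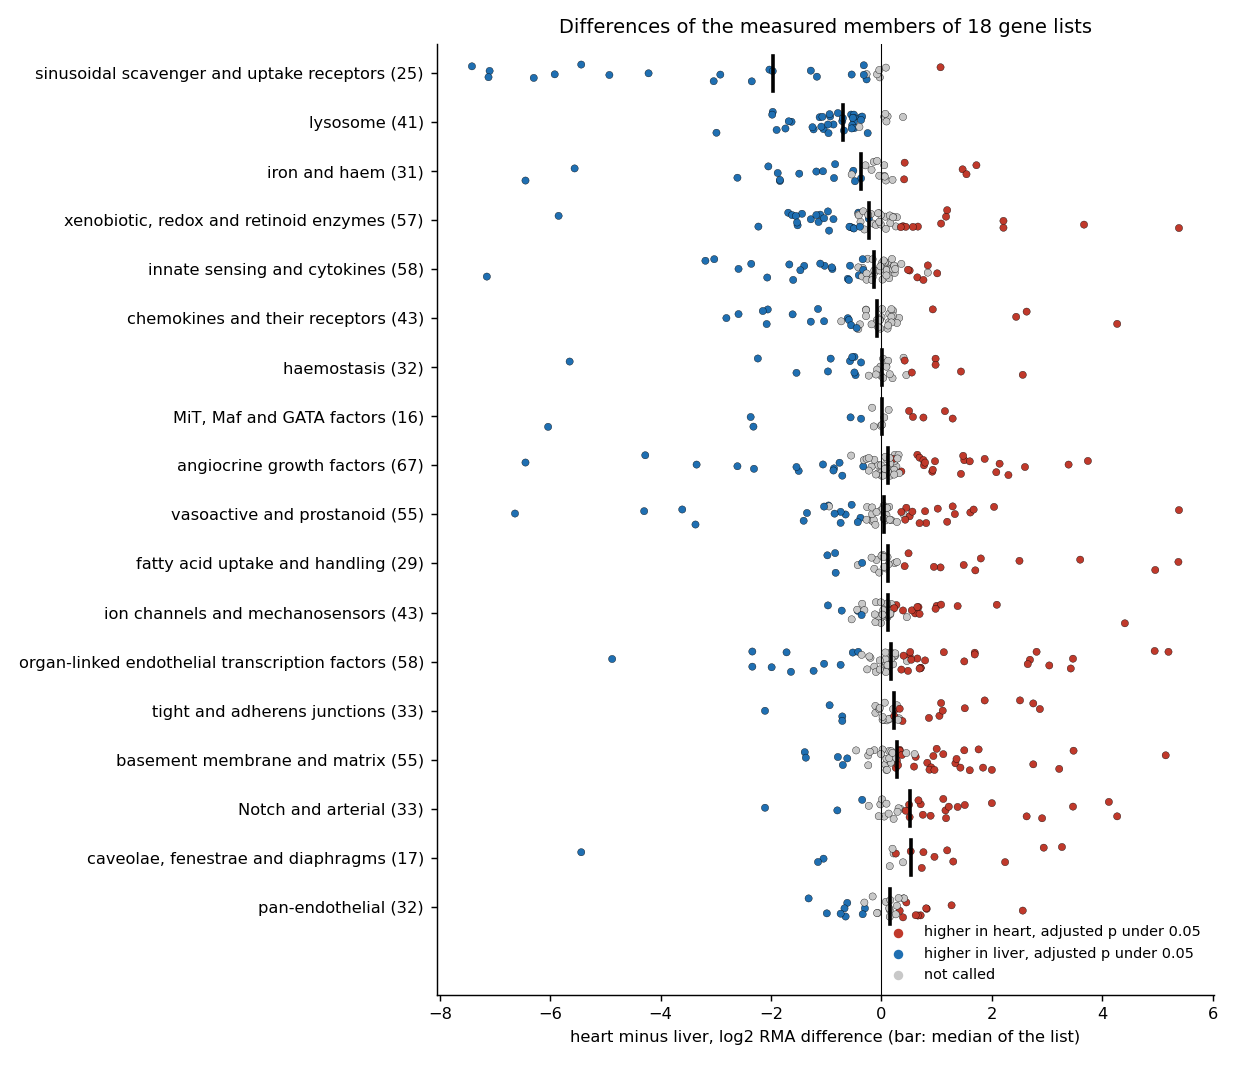
Heart minus liver log2 difference of each measured member of 18 gene lists, with the number of members in brackets, red for genes called higher in heart, blue for genes called higher in liver, grey for genes not called, and a bar at the median of the list. The medians run from -1.97 for the scavenger receptors to 0.53 for the caveolae list, and most lists hold members on both sides of zero.

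Genes of fatty acid handling were among the largest heart differences. Of 29 measured genes, 11 were higher in heart and 4 in liver, beside 11.5% and 16.3% of all genes. The 4 were Plin2, Slc27a2, Lpin1 and Acsl5, the last not called without liver replicates 1, 3 and 4. The median of the list was 0.11 (with centring on general endothelial genes 9, 5 and -0.04). The list held a few very large differences and many small ones. Lpl, the lipase that frees fatty acids from lipoproteins at the vessel wall, read 11.10, 10.65, 11.28, 10.91 and 11.20 in heart and 6.17, 5.11, 6.90, 6.29 and 5.89 in liver (31-fold, no overlap). Aqp7, a channel for glycerol, read 10.31, 10.60, 10.56, 10.38 and 10.84 and 5.24, 5.05, 5.19, 5.05 and 5.24 (41.7-fold, adjusted p = 1.72e-16). Fabp4, the fatty acid binder of capillary endothelium, read 12.53, 12.58, 12.51, 12.51 and 12.33 in heart and from 10.91 to 11.23 over the liver arrays, and was 2.81-fold higher in heart. Mgll and Lipe, which split stored lipid, were 3.24-fold and 3.49-fold higher in heart. Gpihbp1, which anchors the lipase on the capillary wall, did not follow Lpl. It read 11.10, 11.20, 11.48, 11.38 and 11.37 in heart and 11.64, 11.77, 11.80, 11.74 and 11.74 in liver, with every liver array the higher, yet its difference of -0.43 was not called in the fit that includes brain (adjusted p = 0.114) and was called when heart and liver were fitted alone (adjusted p = 0.00184).

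The levels of 2 fatty acid binders varied widely over the heart arrays. Fabp3, the form of heart muscle, read 9.19, 7.24, 8.62, 6.28 and 6.11 on heart replicates 1 to 5, in the same order as the cardiomyocyte marker means, against 4.49, 5.12, 4.94, 5.0 and 5.39 in liver. Fabp9 read 9.88, 7.51, 8.35, 7.85 and 4.67 against 4.07, 3.94, 3.88, 4.37 and 4.03, and its level on heart replicate 5 was close to liver. Its heart levels followed the order of the fibroblast marker means (7.17, 6.52, 6.73, 6.56 and 6.17), not that of the cardiomyocyte ones. Without heart replicates 1 and 3, Fabp3 and Fabp9 differed by 1.55 and 2.62. The part of muscle or fibroblast RNA in these values was not tested. Lpl, Aqp7 and Fabp4 differed by 4.85, 5.45 and 1.47 without heart replicates 1 and 3. Cardiomyocyte markers still averaged 7.68, 7.18 and 7.17 on heart replicates 2, 4 and 5, against 5.70 to 5.95 in liver. That fit thus does not remove muscle RNA, whose part in Lpl, Aqp7 and Fabp4 was not tested either. Rbp7, a retinol binder of capillary endothelium, was 41.8-fold higher in heart, with 11.82, 11.83, 12.09, 12.01 and 12.06 against 6.17, 7.04, 6.43, 6.40 and 6.86.

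Caveolae are the flask-shaped membrane pits of continuous capillaries. Of 17 genes of caveolae, fenestrae and diaphragms, 10 were higher in heart and 3 in liver, beside 11.5% and 16.3% of all genes. Cav1, the caveolar coat protein, read 11.62, 11.78, 11.60, 11.60 and 11.63 in heart and 8.63, 8.70, 8.74, 8.83 and 8.61 in liver, 7.7-fold higher with SDs of 0.07 and 0.09. Ehd2, which stabilises the neck of caveolae, read 8.32, 8.60, 8.33, 8.51 and 8.71 and 4.98, 5.55, 4.72, 5.17 and 5.69 (9.67-fold), and Cav2 was 1.95-fold higher in heart. The 3 liver genes were Ehd3, Aqp1, a water channel (2.21-fold), and Plvap, the diaphragm protein of fenestrae and caveolae. Plvap read 6.73, 6.59, 6.32, 6.24 and 6.26 in heart and 7.94, 7.62, 7.26, 6.91 and 7.65 in liver, did not overlap and was 2.07-fold higher in liver. With general endothelial centring 9 members were called in heart and the same number as before, 3, in liver.

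Genes of Notch signalling and arterial identity were mostly on the heart side. Of 33 genes, 19 were higher in heart and 3 in liver, beside 11.5% and 16.3% of all genes, with a median of 0.51. The heart count was 16 both without liver replicates 1, 3 and 4 and with general endothelial centring. Of the ligands, Jag1 was 2.25-fold higher in heart, and Dll4 differed by 0.34 (adjusted p = 0.0766). Notch1, the receptor, was not called (difference 0.05, adjusted p = 0.783). Of targets and partners, Hey1 read 9.02, 8.89, 8.96, 8.95 and 9.20 in heart and 5.79, 5.71, 5.28, 5.37 and 5.55 in liver. Efnb2, the arterial ephrin, was 2.23-fold higher in heart, and Epha4 7.53-fold. Stmn2, a microtubule-binding protein, read 8.65, 8.78, 9.17, 8.87 and 9.42 against 4.98, 5.06, 4.33, 4.51 and 5.39. The 3 liver genes were Ephb4, the venous receptor of Efnb2, 1.74-fold higher, the connexin Gja4, 4.32-fold higher although it is known as arterial, and Nrp1 (-0.35, and -0.28 and not called without heart replicates 1 and 3, adjusted p = 0.106). Cxcl12, the chemokine of arterial and capillary cells, read 9.82, 10.24, 9.83, 9.94 and 10.31 in heart and 6.09, 5.68, 5.83, 6.05 and 5.15 in liver (19.3-fold). Its receptors Cxcr4 and Ackr3 were higher in heart too, 6.21-fold and 5.43-fold.

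On the venous and lymphatic side, 8 of 22 genes were higher in liver and 5 in heart, beside 16.3% and 11.5% of all genes. The median of this list was 0.08 (-0.07 with centring on general endothelial genes). Flt4, the receptor for VEGF-C that lymphatics are known for, read 6.92, 6.87, 7.15, 7.07 and 7.29 in heart and 10.34, 10.15, 10.02, 9.61 and 9.77 in liver (7.55-fold), and Itga9, an integrin of lymphatic valves, was 8.08-fold higher in liver. Vegfc, the ligand of Flt4, was instead 4.91-fold higher in heart. Aplnr, the apelin receptor, listed as venous, read 9.96, 10.84, 10.45, 10.75 and 10.96 in heart and 4.38, 4.99, 5.31, 5.45 and 5.88 in liver and was 42-fold higher in heart. Flt4 and its ligand Vegfc thus read high in different tissues, with no overlap for either.

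Of 67 genes for signals that endothelium sends to its organ, 22 were higher in heart and 13 in liver, beside 11.5% and 16.3% of all genes. The liver count was thus near its share of all genes. The median was 0.12, and centring on general endothelial genes gave 19, 15 and -0.03. In liver, Bmp2, which drives hepcidin in hepatocytes, read 5.68, 5.18, 5.38, 5.15 and 4.68 in heart and 11.54, 11.87, 11.61, 11.61 and 11.71 in liver (87.5-fold), while Bmp6, which has the same role, was 2.09-fold higher. Hgf, the growth factor of hepatocytes, read 8.88, 8.21, 9.22, 8.57 and 8.06 in liver against 4.42, 4.24, 4.40, 4.36 and 4.12 in heart (19.4-fold). Its difference of -4.28 was -3.83 without liver replicates 1, 3 and 4. Hgf was also among the markers listed for hepatic stellate cells, whose part was not tested. Wnt2 read 7.48, 7.77, 7.87, 6.96 and 8.70 against 5.10, 5.24, 5.56, 5.66 and 5.69, and Rspo3, which strengthens Wnt signals around the central vein, 7.45, 8.53, 7.41, 7.06 and 7.62 against 4.23, 4.36, 4.14, 4.25 and 4.32. Both spread more over the liver pools than Bmp2 did (SD 0.64 and 0.55, against 0.13), with Rspo3 highest on replicate 2 and Wnt2 on replicate 5, the arrays with the lowest Kupffer markers. In heart, Pdgfb, which recruits pericytes, read 8.79, 8.75, 8.85, 8.68 and 8.79 against 6.68, 6.61, 6.43, 6.72 and 7.04 (4.22-fold), Pdgfd was 4.41-fold and Igfbp3 13.3-fold higher. Kitl, the ligand of Kit, was 10.5-fold higher in heart on average, but the liver arrays ranged from 4.26 to 8.69 (3.39 on the log2 scale, and 4.17 without liver replicates 1, 3 and 4). Angpt2 did not differ beyond its spread (-0.2 to 0.44).

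The junction list held 13 of 33 genes higher in heart and 4 in liver (Gja4, Cldn5, Marveld1 and Nectin2), beside 11.5% and 16.3% of all genes. The heart count was 8 without liver replicates 1, 3 and 4 and 9 with centring on general endothelial genes. Gjc1, a connexin, was 7.3-fold, Jup, plakoglobin, 6.75-fold, Cdh13, a cadherin without a cytoplasmic tail, 5.69-fold and Cgnl1, a scaffold of junctions, 3.65-fold higher in heart. Cldn5, the main claudin of endothelium, was 1.91-fold higher in liver, with 9.32, 9.02, 8.92, 8.65 and 8.71 in heart and 10.12, 9.87, 9.68, 9.78 and 9.84 in liver. Tjp1, a junction scaffold, was not called (95% interval -0.04 to 0.24), and Cdh5, the cadherin of endothelial contacts, was called higher in heart by 0.33, a call that was lost in 16 alternatives, among them heart and liver fitted alone (adjusted p = 0.0774), centring on general endothelial genes (0.18, adjusted p = 0.216) and leaving out liver replicates 1, 3 and 4 (0.11, adjusted p = 0.719).

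Matrix genes were mostly on the heart side, 28 of 55 against 5 in liver, beside 11.5% and 16.3% of all genes. Their median was 0.28, and centring on general endothelial genes gave counts of 21 and 7. Sparcl1, a matrix-binding glycoprotein, read 12.77, 12.89, 12.77, 12.77 and 12.86 in heart and 6.81, 8.36, 6.96, 6.68 and 9.52 in liver (35.4-fold), with liver replicates 2 and 5 above the other three (5.15, and 3.87 against this pair alone). Lamb1, a laminin chain of basement membrane, was 11.1-fold and Fn1, fibronectin, 9.33-fold higher in heart. The 5 liver genes were Bgn (2.62-fold), Ecm1 (2.58-fold), Col13a1, Emilin1 and Mmrn2, and Sparc was not called (95% interval -0.28 to 0.02). The list shares genes with fibroblasts, whose markers were higher on the heart arrays (13 of 16, led by Dpt at 9.49, 7.49, 8.95, 7.61 and 5.53 against 4.98, 4.51, 4.61, 4.15 and 4.12), and the part of fibroblast RNA was not tested. Dpt differed by 3.34, and by 2.40 without heart replicates 1 and 3. Without heart replicates 1 and 3, 22 genes were called in heart, and without liver replicates 1, 3 and 4, 20. Of proteases and inhibitors, Adamts9 (7.43-fold) and Timp4 (23.5-fold) were higher in heart. Timp4 differed by 4.55, and by 4.05 without heart replicates 1 and 3. Adam23 (20-fold), Timp2 (7.94-fold) and Mmp14, a membrane-bound collagenase (7.71-fold), were higher in liver.

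Integrins and guidance receptors showed further single large differences. Itga6, a laminin receptor, was 3.88-fold higher in heart, and Itga8 12.4-fold higher in liver. Plxnc1, a semaphorin receptor, read 5.12, 5.44, 5.09, 5.53 and 5.03 in heart and 11.69, 11.69, 11.69, 11.68 and 11.65 in liver (86.8-fold), and its known ligand Sema7a went the opposite way, 9.90 ± 0.10 in heart against 6.23 ± 0.34 in liver (12.7-fold higher in heart). Robo1, a receptor for Slit proteins, was 14.5-fold higher in liver. Of 57 guidance genes, 10 were higher in heart and 12 in liver, beside 11.5% and 16.3% of all genes, with a median of 0.07 (-0.07 with centring on general endothelial genes).

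In the haemostasis list 11 of 32 genes were higher in liver and 6 in heart, beside 16.3% and 11.5% of all genes. Its median was 0.01 (-0.14 with centring on general endothelial genes). F8, clotting factor VIII, read 5.94, 6.52, 6.25, 6.19 and 6.48 in heart and 11.81, 12.08, 11.83, 12.00 and 11.93 in liver, 50.4-fold higher (adjusted p = 1.04e-15), and brain at 5.71 ± 0.27 was lower still. Tfpi, which blocks the start of clotting, was 4.72-fold and Pros1, protein S, 2.9-fold higher in liver. Plat, which activates plasmin, read 9.01, 7.82, 8.30, 8.27 and 8.10 in heart against 4.88, 6.03, 5.86, 6.03 and 5.89 in liver and was 5.91-fold higher in heart. Thbd, which turns thrombin into an anticoagulant, and Entpd1, which removes extracellular ATP, were 1.97-fold and 2.72-fold higher in heart.

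Innate sensing and cytokine genes leaned to liver, 20 of 58 against 6 in heart, beside 16.3% and 11.5% of all genes. Il1a, an alarm cytokine, read 4.69, 4.05, 3.81, 3.98 and 3.91 in heart and 11.60, 12.10, 11.05, 10.91 and 10.51 in liver, 142-fold higher, and -7.22 on the log2 scale without liver replicates 1, 3 and 4. Of the endotoxin sensing set, Lbp, which hands over lipopolysaccharide, was 9.1-fold, Ly96 (MD-2) 8.16-fold and the receptor Tlr4 1.85-fold higher in liver. Lifr and Il6st, which form a receptor for LIF, were 6.02-fold and 3.17-fold higher in liver, with SDs in liver of 0.03 and 0.14. Il15 was 2.02-fold higher in heart. In the fit without liver replicates 1, 3 and 4, 14 were called in liver and 6 in heart.

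Chemokine genes followed a like split, with 13 of 43 higher in liver (8 without those arrays) and 4 in heart (Cxcl12, Cxcr4, Ackr3 and Cx3cl1, the last not called without them). The shares over all genes were 16.3% and 11.5%. Cxcl9, which draws T cells, was 6.99-fold and Cxcl16 4.44-fold higher in liver. The decoy receptors Ackr1 and Ackr2, which take up chemokines without signalling, were 6.04-fold and 4.22-fold higher there. Genes of antigen presentation to CD4 T cells were highest on the liver arrays with high Kupffer markers. H2-Aa read 8.35, 6.77, 9.56, 9.41 and 6.84 on the liver arrays, and its difference of -2.18 became -0.80, while Cd74 went from -1.89 to -0.50. Cd200, a restraint on myeloid cells, was 14.4-fold higher in heart (3.85 on the log2 scale, and 3.02 without those arrays).

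Iron and metal handling differed at several steps. Of 31 iron and haem genes, 15 were higher in liver and 5 in heart, beside 16.3% and 11.5% of all genes. Slc40a1, the only known iron exporter, read 4.69, 5.13, 4.67, 4.87 and 4.71 in heart and 10.54, 10.27, 10.47, 10.47 and 10.11 in liver (47.1-fold, and -5.37 on the log2 scale without liver replicates 1, 3 and 4). Ftl1, ferritin light chain, was 3.67-fold and Hmox1, haem oxygenase, 3.59-fold higher in liver, while Fth1, the heavy chain, was not called (95% interval -0.32 to 0.05). Hamp, hepcidin, a hormone of hepatocytes, read 6.90, 7.39, 7.24, 6.41 and 8.63 on the liver arrays against 5.44, 4.30, 4.12, 4.71 and 4.93, in a group where hepatocyte markers were also raised (-2.61, and -3.31 without liver replicates 1, 3 and 4). Tfrc, the transferrin receptor, was called in heart by 1.47, with heart replicate 1 at 9.06 against 6.27, 6.54, 6.33 and 5.41 on the others and by 0.75 without heart replicates 1 and 3 (adjusted p = 0.0238). The call was lost without liver replicates 1, 3 and 4 (1.90, adjusted p = 0.058) and with heart and liver fitted alone (adjusted p = 0.0522). Slc39a8, an importer of zinc and manganese, was 14.8-fold higher in liver, and the metal-binding proteins Mt1 and Mt2 were 11.6-fold and 28.2-fold higher (-4.82 for Mt2, and -5.60 without heart replicates 1 and 3), and whether their probes bind both of these similar transcripts was not tested.

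Genes of prostanoid and purine handling differed in both directions. Hpgd, which breaks down prostaglandins, read 5.46, 5.15, 5.04, 5.65 and 5.19 in heart and 11.95, 11.89, 11.92, 11.94 and 12.00 in liver (99.7-fold), and Slco2a1, the transporter that brings them into the cell, 6.68, 6.46, 6.27, 6.42 and 6.86 and 10.92, 10.99, 10.87, 10.58 and 10.81 (19.7-fold). Both steps of prostaglandin clearance thus stood on the liver side with no overlap. The ATP receptors P2rx4 and P2ry1 were 12.2-fold and 10.3-fold higher in liver. Dnase1l3, a secreted nuclease that digests DNA in blood, read 4.58, 4.56, 4.71, 4.97 and 4.67 in heart and 11.76, 12.22, 11.92, 11.96 and 12.18 in liver (159-fold), and Ada, adenosine deaminase, was 6.52-fold higher in liver. In heart, Ace, angiotensin-converting enzyme, was 3.06-fold, Npr3, the clearance receptor of natriuretic peptides, 4.1-fold and Nos3, endothelial nitric oxide synthase, 1.37-fold higher. Npr3 was also among 12 markers listed for endocardium, the lining of the heart chambers. Of these, 7 were higher in heart and 1 in liver. Their mean was 6.07 to 6.43 on the heart arrays and 5.50 to 5.85 on the liver arrays, and the part of endocardium was not tested. Edn1, endothelin, was called in heart by 1.19 with overlapping groups, and not without liver replicates 1, 3 and 4 (0.64). Of the 55 vasoactive and prostanoid genes, 16 were higher in heart and 15 in liver, beside 11.5% and 16.3% of all genes. Their median of 0.04 became -0.11 with centring on general endothelial genes.

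Of 21 sphingosine-1-phosphate and lysophosphatidic acid genes, 3 were higher in heart and 7 in liver, beside 11.5% and 16.3% of all genes. The 3 in heart were the receptors S1pr1 (2.41-fold), S1pr3 (2.96-fold) and Lpar4 (3.26-fold). S1pr3 read 7.41, 6.28, 7.01, 6.43 and 5.85 on the heart arrays, in the same order as the fibroblast marker means. It differed by 1.56, by 1.16 without heart replicates 1 and 3, and was not called without liver replicates 1, 3 and 4 as well (adjusted p = 0.111). The part of fibroblast RNA in it was not tested. The liver side, 7 of 21, was led by Sgpp1, a phosphatase of sphingosine-1-phosphate, at 9.91-fold, with 6.81, 6.95, 6.84, 6.93 and 6.74 against 10.19, 10.20, 10.21, 10.13 and 10.09. Of ion channels, Kcna5, a voltage-gated potassium channel, read 9.82, 9.94, 9.77, 9.72 and 9.68 in heart and 5.19, 5.44, 5.44, 5.68 and 5.13 in liver (21.3-fold). Of 43 channels, 15 were higher in heart and 4 in liver, beside 11.5% and 16.3% of all genes. Their median was 0.12 (10, 7 and -0.03 with centring on general endothelial genes). The channel counts were 7 and 3 without liver replicates 1, 3 and 4.

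Enzymes and carriers of lipids and foreign compounds gave 23 of 57 genes higher in liver and 12 in heart, beside 16.3% and 11.5% of all genes. Akr1b8, an aldo-keto reductase, read 5.21, 4.72, 4.72, 4.56 and 4.53 in heart and 10.56, 10.52, 10.63, 10.59 and 10.66 in liver (57.5-fold), and its relative Akr1c14 was 12.8-fold higher in heart. Whether probes of this family bind RNA of its other members was not tested. Abcb1a, the drug efflux pump P-glycoprotein, was 25.1-fold higher in heart, with 10.61, 10.50, 10.59, 10.24 and 10.54 against 5.61, 6.01, 5.68, 5.92 and 6.01. Of lipid carriers, Apoe read 9.60, 9.23, 9.35, 9.05 and 9.21 in heart and 12.47, 12.10, 12.43, 12.43 and 12.33 in liver (8.38-fold), and Pltp, which transfers phospholipid between lipoproteins, was 4.56-fold higher in heart (2.19, and 2.86 without liver replicates 1, 3 and 4).

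Other genes with very large differences had mixed roles. In liver they were Gatm, the first enzyme of creatine synthesis (52.4-fold), Dpp4, a peptidase of incretins and chemokines (48.9-fold), Oit3, a marker of sinusoidal cells (47.2-fold), Il13ra2, a decoy receptor (44.7-fold), and Fam167b (44.9-fold). In heart they were Rassf9, a protein of recycling endosomes (42.3-fold), C1qtnf9, a secreted relative of adiponectin (33.6-fold), Mgat4a, a glycosyltransferase (27.8-fold), Palmd (26-fold), Clic5 (22.7-fold) and Dach1, a transcription factor of coronary growth (21.7-fold). The sarcomere genes Myl2, Tnnt2, Tnnc1 and Actc1 were also among the largest heart differences. Myl2 read 11.40, 10.56, 11.01, 9.73 and 9.74 on the heart arrays, highest on replicates 1 and 3 as the cardiomyocyte marker means were, against 4.21, 4.41, 4.52, 4.50 and 4.46 in liver, and the part of muscle RNA in it was not tested. Tnnc1 and Actc1 differed by 4.54 and 4.46, and by 3.86 and 3.67 without heart replicates 1 and 3.

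Some gene families were split, with one member high in each endothelium. Of 221 pairs of like-named genes with opposite calls of at least 2-fold, the 8 with the largest smaller difference included Fabp9 with Fabp1 and with Fabp7, Ehd2 with Ehd3, Timp4 with Timp2, Cxcl12 with Cxcl9, Igfbp3 with Igfbp4 and Car4 with Car13. The eighth, Ccdc85a (4.18) with Ccdc80 (-2.81), shares only a naming stem. Igfbp3 read 8.86, 8.96, 9.17, 8.92 and 9.24 in heart and 5.38, 5.08, 5.50, 5.23 and 5.28 in liver, and Igfbp4 6.86, 6.77, 7.28, 7.11 and 7.51 in heart and 9.71 ± 0.21 in liver. The binding proteins for insulin-like growth factors lay on opposite sides on every array. Car4, a carbonic anhydrase on the capillary surface, read 10.39, 10.08, 10.73, 10.46 and 10.62 and 5.17, 5.21, 5.29, 5.30 and 5.06, and the intracellular Car13 4.54, 4.36, 4.40, 4.88 and 4.74 and 7.64, 7.10, 7.42, 6.86 and 6.80. Fabp1, the liver form of the fatty acid binders, was 38.5-fold higher in liver, where hepatocyte markers were also found. Fabp7 read 10.26, 7.68, 11.27, 10.98 and 7.20 on the liver arrays, highest where Kupffer markers were high, and was not called without replicates 1, 3 and 4 (-0.77, adjusted p = 0.506).

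Genes of energy metabolism showed mostly small differences. Of 36 respiratory chain genes, 18 were higher in liver and 3 in heart, beside 16.3% and 11.5% of all genes. No liver call reached 2-fold, and without liver replicates 1, 3 and 4 the count was 3 on each side. The 3 in heart, Cox8b, Cox7a1 and Cox6a2, are the forms of striated muscle, and Cox7a1 read 10.19, 8.27, 8.71, 7.09 and 6.41 on the heart arrays, highest on replicates 1 and 3 as the muscle markers were. Cox8b and Cox7a1 differed by 2.74 and 2.50, and by 1.85 and 1.63 without those replicates. In glycolysis 3 of 24 were higher in heart and 5 in liver, near the shares over all genes (11.5% and 16.3%), with Ldhb, a lactate dehydrogenase chain, 4.36-fold higher in liver and Pfkp 2.29-fold higher in heart, and Hk1 not called (95% interval -0.17 to 0.33). In fatty acid oxidation 6 of 21 were higher in liver and 2 in heart, beside 16.3% and 11.5% of all genes. The liver side was led by Pdk4, which spares glucose, at 3.05-fold (-1.61, and -2.23 without heart replicates 1 and 3). Without liver replicates 1, 3 and 4 that list had 1 gene on each side.

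Heat shock and immediate-early genes, which digestion and sorting can change, were higher in heart in part. Of 27 chaperones, 11 were higher in heart and 1, Hsp90b1, in liver, beside 11.5% and 16.3% of all genes. The counts were 7 and 1 with centring on general endothelial genes, and 6 and 0 without liver replicates 1, 3 and 4. Hspb1, a small heat shock protein, read 10.91, 10.06, 10.54, 10.50 and 10.11 in heart and 6.97, 7.74, 6.53, 6.75 and 6.83 in liver (11-fold), whereas Hspa1a overlapped (11.04, 10.22, 10.45, 10.40 and 9.59 and 8.97, 10.48, 8.19, 9.25 and 9.06). Hspa1a differed by 1.15, and was not called without heart replicates 1 and 3 (0.88, adjusted p = 0.0828) or without liver replicates 1, 3 and 4 (0.57, adjusted p = 0.343). Hsp90b1 (-0.25) was called in neither setting. Of 34 immediate-early genes, 11 were higher in heart and 1, Myc, in liver, beside the same shares of all genes. The counts became 7 and 5 without heart replicates 1 and 3, and 2 and 0 without liver replicates 1, 3 and 4. The call of Myc (-0.76) was also lost with heart and liver fitted alone (adjusted p = 0.06) and without any one of heart replicates 2 to 5 or liver replicates 2 and 3 (adjusted p = 0.0608 to 0.0829). Klf4, also a factor of laminar flow, was 3.22-fold higher in heart with no overlap, and Jun and Dusp1 were not called. The enzyme and the temperature of digestion differed with the tissue, and their part cannot be told apart from it.

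The brightest genes whose interval lay within 0.25 of zero were Eef1a1, Tpt1, Gas5, Rps6, Rps28 and Rps12, of the translation machinery or hosts of small RNAs. Eef1a1 averaged 12.78 ± 0.07 in heart and 12.77 ± 0.10 in liver (difference 0.02, 95% interval -0.14 to 0.17), and Rps6 12.49 ± 0.06 and 12.50 ± 0.06. In all, 3390 genes had such an interval.

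A microRNA family could be followed through its host transcripts. miR-99a and miR-100 are known to restrain Mtor, and their mature strands are shown because they share the seed (bases 2 to 8, in capitals) through which targets are chosen and differ at 1 base outside it.
mmu-miR-100-5p: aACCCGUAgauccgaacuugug
mmu-miR-99a-5p: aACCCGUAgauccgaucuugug
They lie at chr9:41531437-41531458 (miR-100, plus strand) and chr16:77598940-77598961 (miR-99a, plus strand) of GRCm38.p6 in the RefSeq table, each known to lie inside a long noncoding host gene. The array reads the hosts and hairpins, not the mature strands. Mir100hg read 6.35, 5.28, 6.30, 5.66 and 5.06 in heart and 7.25, 7.10, 6.85, 7.19 and 7.06 in liver (2.57-fold, no overlap), and Mir99ahg 5.54, 5.06, 5.58, 5.71 and 4.93 and 6.49, 5.64, 6.61, 6.99 and 6.74 (2.19-fold, with overlap). The hairpin probe sets gave -0.60 for Mir100 (-0.33 and not called without liver replicates 1, 3 and 4) and -1.85 for Mir99a. Mir100 was dim, at 3.58 to 4.83 over the heart and liver arrays, whose lower quartiles over genes were 4.76 to 4.96. Mir99a overlapped, with heart replicate 1 at 5.66 and liver replicate 4 at 4.66. Without liver replicates 1, 3 and 4 the host differences were -1.35 and -0.82, the second no longer called. Of 300 microRNA gene entries measured, 21 were higher in heart and 10 in liver, beside 11.5% and 16.3% of all genes. With a floor of 2-fold the counts were 0 and 5, and the hosts were chosen after their values had been seen.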

How the data were processed

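The values used are the authors' deposited log2 levels from a mouse gene array, 1 per probe set and array, made with RMA in Affymetrix Power Tools per the submitters' processing notes. Software versions and the genome build were not stated in the sources used here. Of 35556 probe sets, 23410 were listed in the platform annotation. Of these, 21789 had 1 symbol and were used, 1621 had several and were left out, and 12146 probe sets had no name here. For each of 19938 genes the brightest probe set on average across the 15 arrays was kept, and its level is compared only across arrays. Array medians were 5.98 to 6.11, and the number of arrays limits the precision. RMA compresses differences of dim genes, so their folds are likely understated.

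Arrays were grouped by their titles, 5 a tissue. A linear model with a mean for each of 3 tissues for all 15 arrays was fitted by lmFit and eBayes of limma 3.58.1 (R 4.3.3), after a check on simulated data, and p-values were adjusted by Benjamini-Hochberg over all genes. All tests were two-sided. Gene lists overlap and were described by counts and medians, with no test of the list. The members and lists were chosen with earlier results of these data known.

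Genes were named by rule: the 20 largest differences in each direction among called genes with no overlap, up to 4 called members of a list in each direction and up to 2 uncalled with the highest mean, a fixed set of known genes (Tek, Pecam1, Cdh5, Kdr, Gata4, Meox2, Tcf15, Cd36, Fabp4, Lpl, Stab1, Stab2, Lyve1, Maf, Wnt2, Rspo3, F8 and Vwf), 8 pairs of like-named genes, 6 bright genes with narrow intervals, and the largest gap of 1 array. These were chosen outside that rule, after their values had been seen: Xist, Eif2s3y, Lgmn, Dab2, Ctsd, Lamp1, Scarb2, Arsb, Ctsc, Tfeb, Ctsa, Gla, Mcoln1, Atp6v1a, Ebf3, Meox1, Tbx3, Mgll, Lipe, Cav2, Jag1, Dll4, Notch1, Efnb2, Bmp6, Pdgfb, Pdgfd, Mmrn2, Tlr4, Il6st, Ftl1, Hmox1, Nos3, Edn1, Hspa1a, the microRNA hosts and hairpins, and the genes under other observations.

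Alternatives were a fit of heart and liver alone, other choices of probe set, a filter on dim genes, centring on array medians or on general endothelial genes, a trended and robust eBayes, array weights, a replicate block, and leaving out each array. Leaving out the arrays that stood apart was added after seeing the data. Promoters and microRNAs came from RefSeq tables (GRCm38.p6), matched by symbol.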

Additional observations from a re-analysis of the deposited data

Results flagged for a closer look

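In 43 of 580 groups of 5 arrays examined (the heart and the liver arrays of 238 genes and 52 list means), 1 array lay far from the other 4 by Dixon's criterion. Chance alone flags about 1 in 20 groups, and list means share genes. Each array is given with its log2 level and the level of the nearest other array of its group, and no cause was tested. Among list means these were basement membrane and matrix on heart replicate 1 (7.49, nearest 7.35), angiocrine growth factors on heart replicate 1 (6.62, nearest 6.52), leukocyte adhesion and traffic on heart replicate 1 (7.53, nearest 7.40), sphingosine and lysophosphatidic acid on liver replicate 1 (7.38, nearest 7.45), aquaporins and carbonic anhydrases on heart replicate 5 (6.34, nearest 6.26), heat shock and chaperones on liver replicate 2 (8.70, nearest 8.48) and red cell on heart replicate 1 (6.75, nearest 6.65).

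Heart replicate 1 was the high array for Ctss (7.19, nearest 6.27), Ecm1 (8.71, nearest 7.91), Il1a (4.69, nearest 4.05), Cx3cl1 (7.02, nearest 6.79), Hmox1 (8.01, nearest 7.17), Ada (8.26, nearest 6.77), Akr1b8 (5.21, nearest 4.72), Myc (6.99, nearest 5.79) and Jun (11.26, nearest 10.29). Heart replicate 1 was the low array for Mgll (11.15, nearest 11.36). Heart replicate 2 was the high array for Cav1 (11.78, nearest 11.63). Heart replicate 2 was the low array for Cgnl1 (8.34, nearest 8.47), Pros1 (8.98, nearest 9.17) and Fabp1 (3.32, nearest 3.51). Heart replicate 3 was the high array for Tie1 (9.08, nearest 8.90). Heart replicate 4 was the low array for Scarb1 (7.93, nearest 8.17) and Abcb1a (10.24, nearest 10.50). Heart replicate 5 was the low array for Slc39a8 (4.66, nearest 5.29). Liver replicate 1 was the high array for Ctsd (11.26), Hoxb5 (9.29, nearest 8.75) and Peg3 (5.58, nearest 5.33). Liver replicate 1 was the low array for Msr1 (10.87, nearest 11.19), Col13a1 (7.40, nearest 7.47) and Plat (4.88, nearest 5.86). Liver replicate 2 was the high array for Maf (9.68, nearest 8.15), Fabp4 (11.23) and Oit3 (11.33, nearest 10.90). Liver replicate 2 was the low array for Ftl1 (11.22, nearest 11.57), Eef1a1 (12.60, nearest 12.78) and Rps28 (12.28, nearest 12.47). Liver replicate 3 was the low array for Eif2s3y (4.08, nearest 7.80) and Rassf9 (3.66, nearest 4.49). Liver replicate 4 was the high array for Akr1c14 (4.70, nearest 4.47) and Actc1 (6.07, nearest 5.86). Liver replicate 4 was the low array for Cd34 (8.21, nearest 8.47) and Mir99a (4.66, nearest 5.95).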

How the results depend on the processing

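Of 238 genes named, 208 kept their direction and their side of the threshold in all alternatives run. Ctsc reversed without liver replicates 1, 3 and 4 (0.20, from -1.68, adjusted p = 0.81), as did Cd86, a costimulatory molecule of antigen-presenting cells (0.05, from -1.12, adjusted p = 0.902). In that setting Acsl5, Cdh5, Cx3cl1, Edn1, Fabp7, Gla, Hsp90b1, Hspa1a, Kdr, Mir100, Mir99ahg, Myc, Myl4, Pecam1 and Tfrc lost their call, and Arsb (0.67, adjusted p = 0.0255) and Mitf gained one. Counts of calls moved by over 1.5 times there, to 3285 genes in all, 1451 in heart and 1834 in liver. Without heart replicates 1 and 3 as well they were 2867, 1281 and 1586. These fits hold fewer arrays. Centring on general endothelial genes gave 1220 in heart, and by construction shifts all genes. At the 4-fold floor 408 genes were called, and brain lay nearer to heart in 79.7% of them, from 75.1%. Leaving out 1 heart, liver or brain array gave 1980 to 2407 genes in heart and 2767 to 3331 in liver. Heart and liver fitted alone gave 2176 and 3145, and Cdh5, Ctsc, Hsp90b1, Myc and Tfrc lost their call there.

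The arrays were not taken as paired, and what a shared replicate number marks is not stated. Deviations from the group mean were correlated across genes between heart and liver arrays. The 5 pairs with the same number ranged from 0.042 to 0.204 (median 0.095), and pairs with different numbers had a median of -0.033. Of the arrays, 2 of 5 heart and 3 of 5 liver arrays correlated best with their own number. Between brain and heart the medians were 0.095 for the same number and -0.016 for different numbers. Between brain and liver they were 0.121 and -0.024. An effect shared by arrays of the same number was not tested apart from the fits with a block. With the number as a replicate block the fit of 15 arrays called 2534 genes in heart and 3402 in liver, and that of 10 arrays 2253 and 3189. Dll4 was called in heart with the block (0.34 in both, adjusted p = 0.0118 and 0.012).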

Other observations

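Some genes not described above also differed, and all those named here were chosen after their values had been seen. Airn, an imprinted antisense transcript that silences its neighbours, read 9.97, 10.39, 9.87, 10.30 and 10.12 on the heart arrays and 6.26, 6.47, 6.07, 6.15 and 5.56 on the liver arrays (16.3-fold), and Igf2r, the receptor gene it overlaps, 8.83, 8.99, 9.07, 8.96 and 9.06 and 6.74, 6.71, 6.46, 6.60 and 6.58 (5.15-fold). Whether the probes of this overlapping pair read only their own strand is not given in the sources used here. Of other genes known to be imprinted, of which no list was counted, Peg3 was higher in heart by 2.31, Igf2 by 1.87 and Cdkn1c, a cell cycle inhibitor, by 0.95, each with no overlap between the groups. Without heart replicates 1 and 3 these differences were 2.17, 1.94 and 0.74.

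Of single receptors, Gpr182, a receptor of sinusoidal cells, read 7.12, 7.08, 7.22, 6.91 and 7.37 in heart and 11.77, 12.12, 11.52, 11.52 and 11.73 in liver (24.1-fold), Lepr, the leptin receptor, 4.75, 4.29, 4.38, 4.31 and 5.36 and 7.80, 8.19, 8.01, 7.72 and 8.47 (10.7-fold), and Cnr2, a cannabinoid receptor, 4.83, 5.28, 5.02, 4.79 and 5.01 and 9.45, 9.63, 9.21, 9.21 and 9.25 (20.6-fold). Without liver replicates 1, 3 and 4 they differed by -4.79, -3.71 and -4.46. Of 33 genes of BMP and TGF-beta signalling, 11 were higher in heart and 11 in liver, beside 11.5% and 16.3% of all genes. Of 33 genes of leukocyte adhesion, 9 were higher in heart and 6 in liver, beside the same shares of all genes.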
